A study of Mus musculus with 21 samples.

Results

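D cyclins, their kinase partners Cdk4 and Cdk6, the CDK inhibitors and the retinoblastoma gene Rb1 were followed through pressure overload of the mouse heart. The genes were Ccnd1, Ccnd2, Ccnd3, Cdk4, Cdk6, Cdkn1a, Cdkn1b, Cdkn1c, Cdkn2c and Rb1. These 10 genes, of 18193 gene symbols on the array, were chosen by name. All of their 27 probe sets were taken, where a probe set is a group of short oligos that together read a gene's RNA. A probe set passed the filter on low values where its mean log2 level over all arrays was at or above 4.35, which 21 of the 27 did. Each gene was tested on its brightest probe set, and all 10 passed on it.

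RNA was read on 21 biotin-labelled arrays in 4 groups. G4D TAC (n = 6) and G4D sham (n = 5) were gene-targeted mice heterozygous for a Gata4 allele without the second exon, where Gata4 is a DNA-binding regulator of heart muscle genes. Wild-type TAC (n = 6) and wild-type sham (n = 4) were mice without that deletion. In TAC, transverse aortic constriction, a ligature narrowed the aorta and loaded the heart with pressure. Sham-operated mice had the aorta left untouched. The source is labelled cardiac myocytes. Age, sex, the time after the operation and whether cells were isolated are not stated in the labels, nor is the cell type in which the deletion acts.

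As background, D-type cyclins are made in response to growth signals and bind Cdk4 or Cdk6. The active kinases phosphorylate the retinoblastoma protein, which then releases E2F transcription factors, and these switch on the genes of DNA replication. INK4 inhibitors such as p18 (Cdkn2c) bind Cdk4 and Cdk6, while p21 (Cdkn1a), p27 (Cdkn1b) and p57 (Cdkn1c) act on cyclin and kinase complexes more broadly. Adult mouse cardiomyocytes rarely divide. Gata4 is known from mouse heart to act on Ccnd2 and Cdk4.

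Array medians of the deposited log2 values ran from 4.31 to 5.33, so the arrays were quantile normalized. Each array correlated at 0.969 or more with the other arrays of its group, taken as their mean. All 10 cardiomyocyte markers passed the filter, and the log2 of their summed level lay between 15.77 and 15.90 on every array. Markers of fibroblasts, endothelium and macrophages were above the filter as well, so the arrays hold RNA of several cell types, and in bulk RNA fewer cells of a type and less RNA per cell cannot be told apart. Precision throughout is limited by how many arrays there were. Gata4 passed in neither comparison of the genotypes, at a log2 fold change of 0.17 ± 0.10 after TAC (SE, adjusted p = 0.556) and -0.25 ± 0.12 in sham (adjusted p = 0.611). Where its probe set lies relative to the second exon was not known, so it does not check the genotype labels.

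TAC was accompanied by higher D cyclins and by lower Cdkn1c, the p57 inhibitor. In G4D, 4 of the 10 genes passed the test between TAC and sham, where 22.5% of the 13279 tested genes did. Ccnd1, Ccnd2 and Ccnd3 rose and Cdkn1c fell. In wild type, also 4 of 10 passed, where 7.35% of all tested genes did. Ccnd1, Ccnd3 and Cdk4 rose and Cdkn1c fell. Risers made up 13.2% of all tested genes in G4D and 5.19% in wild type, and fallers 9.32% and 2.16%. At an unadjusted p under 0.05 there were 6 of the 10 in each genotype, where 34.3% of all tested genes met that in G4D and 19.9% in wild type. The median log2 fold change of the 10 genes was 0.22 in G4D and 0.32 in wild type, and over all tested genes it was -0.02 in both. Without normalization of the deposited values 7 passed in G4D and 0 in wild type, and with each array centred on its median 6 and 1. As deposited, the median of all tested genes moved to 0.31 in G4D and -0.10 in wild type.

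No gene of the 10 passed the limma test between G4D and wild type. After TAC the count was 0, where 3.36% of all tested genes passed, and 3 had an unadjusted p under 0.05 (Ccnd2, Cdk4 and Rb1), as 13.4% of all tested genes had. In sham it was 0, where 0.0527% of all tested genes passed, and 0 had an unadjusted p under 0.05, where 8.09% of all tested genes had one. For the difference between the TAC effects of the genotypes it was 0, where 0.0151% of all tested genes passed, and only Cdk4 had an unadjusted p under 0.05, as 8.36% of all tested genes had. The groups of the genotypes overlapped for all 10 genes, where 2.59% of all tested genes did not overlap after TAC and 2.9% in sham. A gene that passed in G4D and not in wild type, or the reverse, is therefore not shown to differ between the genotypes. The 2 TAC comparisons share no array, but each genotype comparison after TAC or in sham shares its arrays with both of them.

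**Figure D1:**
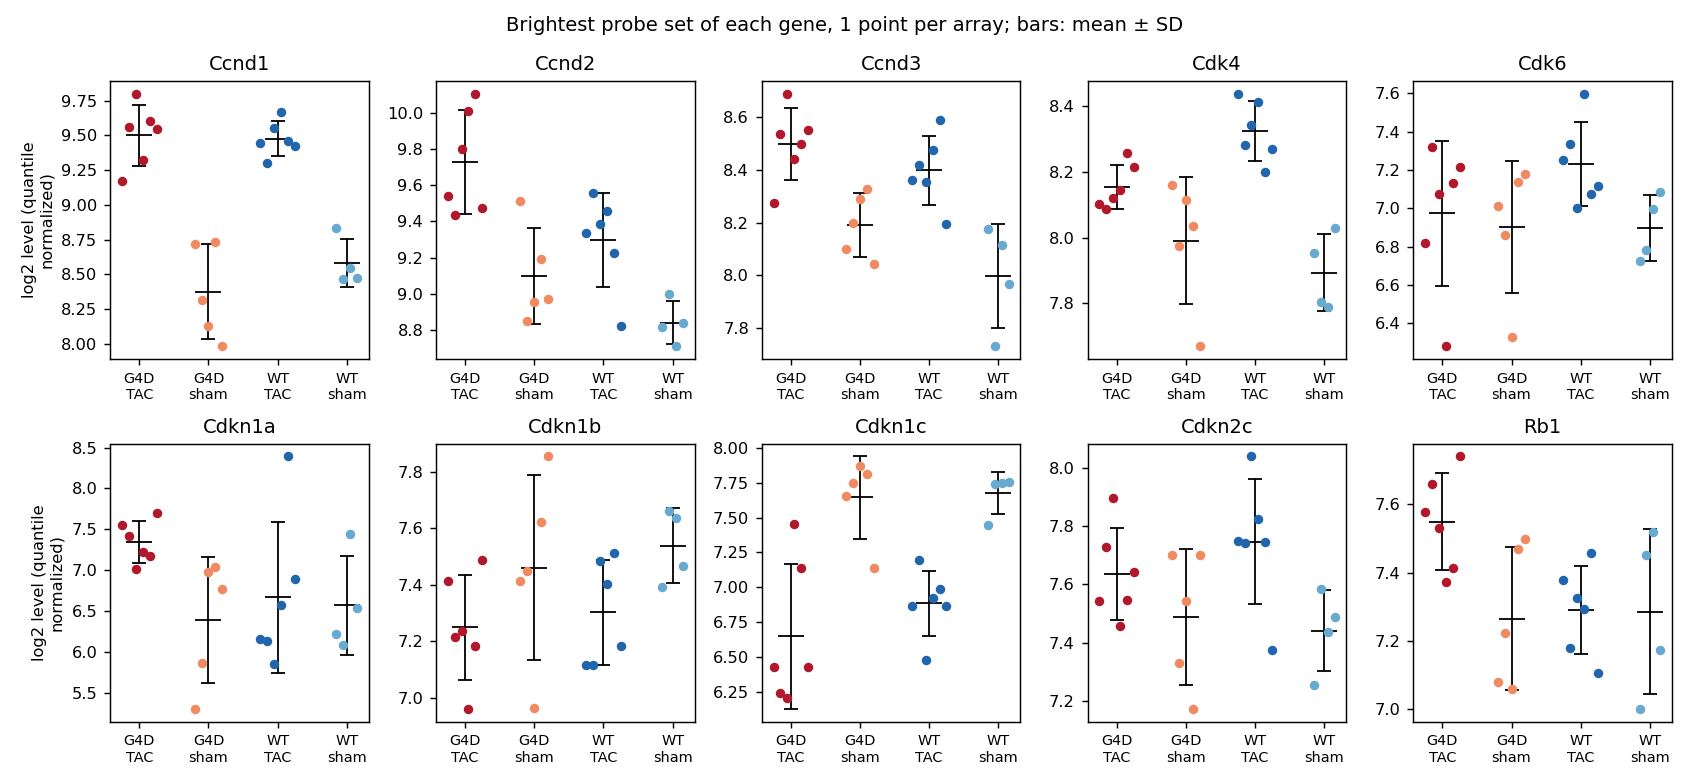
The log2 level of the brightest probe set (y axis) is plotted for each of the 10 genes, with 1 point per array in G4D TAC, G4D sham, wild-type TAC and wild-type sham (x axis), and bars for the mean ± SD. The 12 TAC arrays lie above the 9 sham arrays for Ccnd1, at 9.17 or more against 8.84 or less, while the groups overlap widely for Cdkn1a.

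Ccnd1 encodes cyclin D1, the D cyclin that responds most widely to growth factors. Its log2 level in G4D TAC had a lowest value of 9.17, a median of 9.55 and a highest value of 9.80, against 8.72, 8.31, 8.13, 8.73 and 7.98 in G4D sham. In wild-type TAC the lowest, median and highest values were 9.30, 9.45 and 9.67, against 8.84, 8.47, 8.55 and 8.47 in wild-type sham. Every TAC array lay above every sham array in both genotypes. Groups that do not overlap were found for 10.1% of all tested genes between TAC and sham in G4D, where Ccnd1 was the only such gene of the 10, and for 10.5% in wild type, where there were 4.

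Ccnd1 rose by 1.12 ± 0.13 on the log2 scale in G4D (SE, 2.18-fold, adjusted p = 5.62e-06) and by 0.90 ± 0.14 in wild type (1.86-fold, adjusted p = 0.000628). The difference between these effects was 0.23 ± 0.20, with a 95% interval from -0.18 to 0.64. After TAC the levels of the genotypes differed by 0.02 ± 0.13 (95% interval -0.24 to 0.29). In sham G4D was at -0.20 ± 0.15 relative to wild type (95% interval -0.51 to 0.10). By mean level the order was G4D TAC (9.50), wild-type TAC (9.48), wild-type sham (8.58) and G4D sham (8.38), and neither neighbouring pair of the same operation differed past the threshold.

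All 3 probe sets of Ccnd1 gave the same calls. In a fit of all 45037 non-control probe sets, each of the 3 passed in both genotypes, at 0.98 to 1.47 in G4D and 0.73 to 1.30 in wild type. Across the 10 genes, 10 of 27 probe sets passed in G4D, where 8.97% of all probe sets did, with 9 higher and 1 lower. In wild type 6 of 27 passed, all higher, where 2.02% of all probe sets did. Between the genotypes 0 of 27 passed after TAC, where 0.853% of all probe sets did, and 0 of 27 in sham, where 0.00444% did, and 0 of 27 passed for the difference between the effects, where 0.00222% did.

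**Figure D2:**
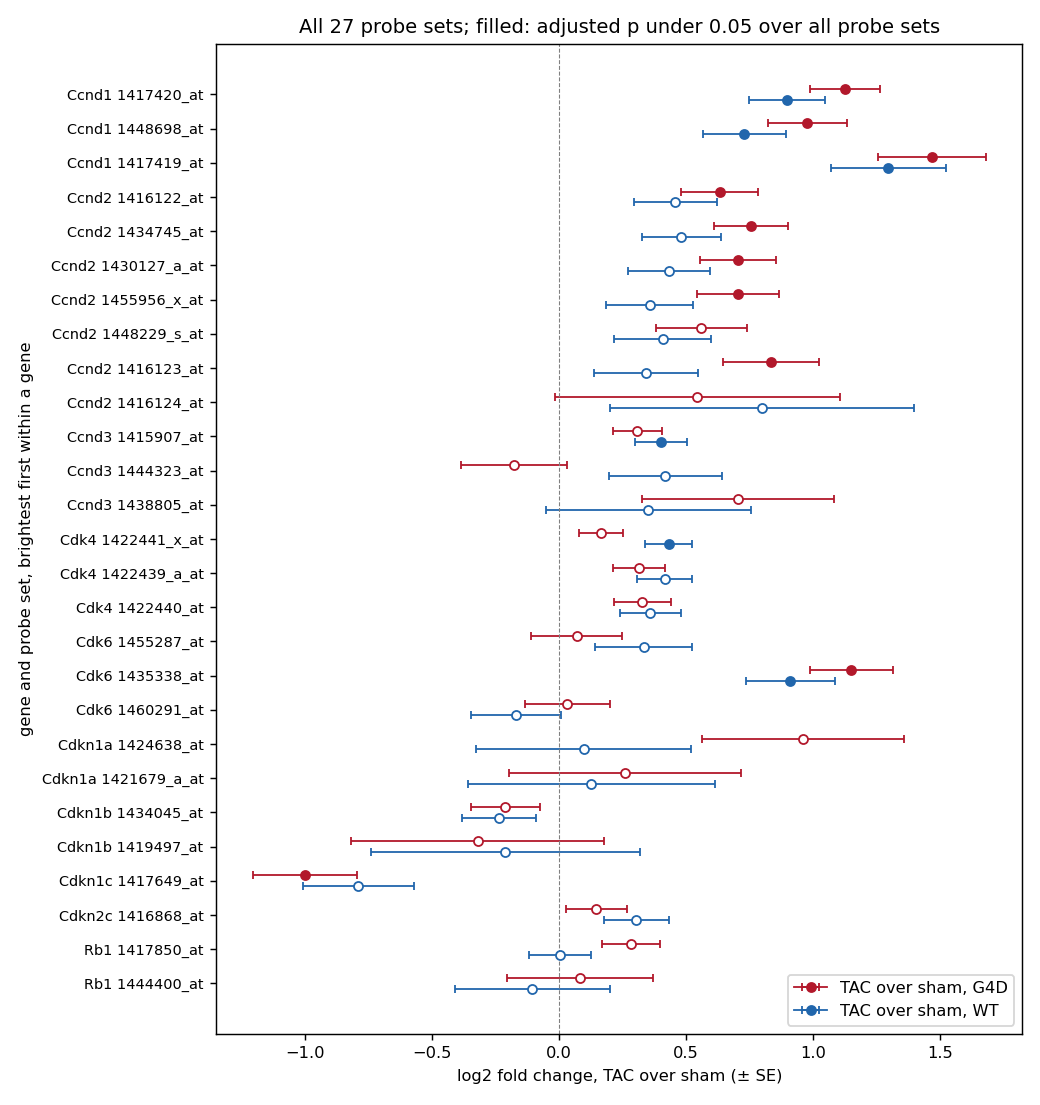
The log2 fold change of TAC over sham (x axis, ± SE) is plotted for all 27 probe sets (y axis, brightest first within a gene), in G4D (red) and in wild type (blue), with filled points at an adjusted p under 0.05 over all probe sets. The 3 Ccnd1 probe sets are filled in both genotypes, and of the 7 Ccnd2 probe sets 5 are filled in G4D and 0 in wild type.

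Ccnd2 encodes cyclin D2, the D cyclin whose forced expression is known to push mouse cardiomyocytes into the cell cycle. In G4D TAC its log2 level had a lowest value of 9.44, a median of 9.67 and a highest value of 10.11, against 9.52, 8.85, 8.96, 9.19 and 8.97 in G4D sham. In wild-type TAC it had 8.82, 9.36 and 9.55, against 8.82, 9.0, 8.71 and 8.84 in wild-type sham. The overlap in G4D came from a single sham array, replicate 1 at 9.52, and in wild type from a single TAC array at 8.82. G4D TAC had the highest mean (9.73), followed by wild-type TAC (9.30), G4D sham (9.10) and wild-type sham (8.84).

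Ccnd2 rose by 0.63 ± 0.15 after TAC in G4D (SE, 1.55-fold, adjusted p = 0.00343). In wild type the value was 0.46 ± 0.16 (1.37-fold, adjusted p = 0.0828), which did not pass, and the difference between the effects was 0.17 ± 0.21 (95% interval -0.27 to 0.62). Without wild-type TAC replicate 6 the wild-type value was 0.55 and passed (adjusted p = 0.0243). All 7 probe sets of Ccnd2 had positive fold changes in both genotypes, from 0.54 to 0.83 in G4D and from 0.34 to 0.80 in wild type.

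Between the genotypes after TAC, Ccnd2 stood at 0.43 ± 0.14 in G4D relative to wild type (SE, unadjusted p = 0.00547, limma adjusted p = 0.104). The 95% interval ran from 0.14 to 0.72, and the groups overlapped, since the lowest G4D array (9.44) lay under the highest wild-type array (9.55). Of its 7 probe sets 6 were positive and 0 passed, with a range from -0.14 to 0.61. The negative one lay below the filter. In sham the value was 0.26 ± 0.16 (adjusted p = 0.734).

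Ccnd3 encodes cyclin D3, the D cyclin linked to muscle differentiation. Its log2 level in G4D TAC ran from 8.27 through a median of 8.52 to 8.69, against 8.10, 8.20, 8.29, 8.33 and 8.04 in G4D sham. In wild-type TAC it ran from 8.20 through 8.39 to 8.59, against 8.18, 7.73, 8.11 and 7.97 in wild-type sham. In G4D the lowest TAC array fell among the sham arrays, while in wild type the groups stood narrowly apart.

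Ccnd3 rose by 0.31 ± 0.09 in G4D (SE, 1.24-fold, adjusted p = 0.0212) and by 0.40 ± 0.10 in wild type (1.32-fold, adjusted p = 0.016). The calls were close to the threshold. In G4D the call was lost without sham replicate 1 (0.29, adjusted p = 0.0551), sham replicate 5 (0.27, adjusted p = 0.0563) or TAC replicate 3 (0.27, adjusted p = 0.0507), and in wild type without sham replicate 2 (0.31, adjusted p = 0.0786). Tested among all probe sets instead of all genes, it did not pass in G4D (0.31, adjusted p = 0.053) and passed in wild type (0.40, adjusted p = 0.049). The other probe sets of Ccnd3, a pair below the filter, passed in neither genotype. Between the genotypes it stood at 0.10 ± 0.09 after TAC and 0.19 ± 0.10 in sham, and neither passed (adjusted p = 0.74 and 0.671).

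Cdk4 encodes the kinase that D cyclins activate. Its log2 level in G4D TAC ran from 8.09 through a median of 8.13 to 8.26, against 8.16, 7.97, 8.11, 8.04 and 7.67 in G4D sham. The wild-type TAC arrays ran from 8.20 through 8.31 to 8.44, against 7.95, 7.80, 7.79 and 8.03 in wild-type sham. The wild-type groups did not overlap. In G4D 2 sham arrays reached the range of the TAC arrays, and replicate 5 was the lowest sham array.

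Cdk4 rose by 0.43 ± 0.09 in wild type (SE, 1.35-fold, adjusted p = 0.00435). In G4D the value was 0.16 ± 0.08 (1.12-fold, adjusted p = 0.165), which did not pass. As deposited, the wild-type call was lost (0.35, adjusted p = 0.952) and the G4D effect passed (0.59, adjusted p = 0.0399), and with median centring neither passed (0.42, adjusted p = 0.173 in wild type). The as-deposited median of all genes for TAC in G4D was 0.31, and relative to it Cdk4 stood at 0.28. The difference between the TAC effects, G4D less wild type, was -0.27 ± 0.12 (95% interval -0.52 to -0.01, unadjusted p = 0.0389, adjusted p = 0.563). After TAC G4D stood at -0.17 ± 0.08 relative to wild type (unadjusted p = 0.0433, adjusted p = 0.346). In sham the value was 0.10 ± 0.09 (adjusted p = 0.86). Both directions turned in a fit of the deposited values without normalization, to 0.24 for the difference between effects and 0.0023 after TAC. The median of all genes in that fit was 0.43 and 0.14, and relative to it Cdk4 stood at -0.19 and -0.14.

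The probe sets of Cdk4 did not set the genotypes apart equally. Its brightest probe set has a name ending in _x_at, a label the manufacturer gives to probe sets whose oligos may also match other transcripts. In the fit of all probe sets the 3 probe sets gave values from 0.16 to 0.33 in G4D and from 0.36 to 0.43 in wild type. The dimmer ones were at 0.31 and 0.33 in G4D (adjusted p = 0.0629 and 0.0807). In wild type they were at 0.42 and 0.36 and did not pass either (adjusted p = 0.0546 and 0.161). Only the brightest passed in that fit, in wild type (0.43, adjusted p = 0.0162), so the wild-type call rests on the _x_at probe set. The difference between the effects ran from -0.27 on the brightest to -0.03 on the least different.

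The promoter of Cdk4 is shown because Myc, a transcription factor of growth signals, is known to act on CDK4 through E-boxes. The 250 bases before its start, on the plus strand at chr10:127063285-127063534 (RefSeq, GRCm38.p6), hold the E-box letters CACGTG at 4 places, in capitals.
Cdk4: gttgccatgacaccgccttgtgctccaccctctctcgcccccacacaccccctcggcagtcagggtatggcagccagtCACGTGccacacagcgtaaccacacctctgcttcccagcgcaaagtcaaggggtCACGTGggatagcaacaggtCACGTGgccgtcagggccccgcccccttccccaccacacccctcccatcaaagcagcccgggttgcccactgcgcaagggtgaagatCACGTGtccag
These lie 172 to 167, 118 to 113, 98 to 93 and 11 to 6 bases before the start. Of 32851 RefSeq promoters of the same length, 6.02% hold CACGTG, which reads the same on both strands, and 7 (0.0213%) hold it at 4 or more places. Neither start of Ccnd3, a gene that rose in both genotypes, holds it, at chr17:47504801-47505050 and chr17:47593217-47593466, both on the plus strand.
Ccnd3 start 1: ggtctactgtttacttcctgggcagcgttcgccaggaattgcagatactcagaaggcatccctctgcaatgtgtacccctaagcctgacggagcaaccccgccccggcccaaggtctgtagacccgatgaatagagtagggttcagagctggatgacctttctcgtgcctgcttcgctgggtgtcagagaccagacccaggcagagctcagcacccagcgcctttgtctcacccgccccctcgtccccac
Ccnd3 start 2: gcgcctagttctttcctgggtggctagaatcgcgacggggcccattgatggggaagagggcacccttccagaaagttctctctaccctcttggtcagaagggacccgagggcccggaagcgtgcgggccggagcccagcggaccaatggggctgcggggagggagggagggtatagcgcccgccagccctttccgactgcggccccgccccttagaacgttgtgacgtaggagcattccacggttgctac
A match is a description of letters and shows no binding. Myc itself did not pass in either genotype, and its mean log2 level was 4.76 in G4D TAC, 4.66 in G4D sham, 4.70 in wild-type TAC and 4.75 in wild-type sham.

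Promoters of 6 of the 10 genes were matched, with 9 starts, and the motifs were searched on both strands. The Cdk6 promoter held 1 E-box and 1 TATAAA, a sequence that 12.4% of all promoters hold. A start of Cdkn1a held 1 GATA motif (either AGATAA or AGATAG, or else TGATAA or TGATAG), which 26.5% of all promoters hold. A start of Cdkn2c held 1 E2F core (TTCGCGC or TTGGCGC, or else TTCCCGC or TTGCCGC), which 7.89% hold. The GATA motif was found in neither the Cdk4 nor the Ccnd3 windows, which says only that those letters are not in these bases. Ccnd1, Ccnd2, Cdkn1c and Rb1 were not matched.

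Cdk6, the other kinase of the D cyclins, was read differently by its 3 probe sets. On the brightest, 1455287_at, the log2 level ran from 6.28 through a median of 7.10 to 7.32 in G4D TAC, against 6.33 to 7.18 in G4D sham, and from 7.0 through 7.18 to 7.60 in wild-type TAC, against 6.73 to 7.09 in wild-type sham. These ranges overlapped, and neither TAC effect passed, at 0.07 ± 0.17 in G4D (SE, adjusted p = 0.808) and 0.33 ± 0.18 in wild type (adjusted p = 0.331). The third probe set, 1460291_at, lay below the filter in every group mean and did not pass.

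Cdk6 gave other values on 1435338_at. Its log2 level ran from 6.16 through a median of 6.47 to 6.87 in G4D TAC, against 5.18, 5.29, 4.96, 5.61 and 5.60 in G4D sham. In wild-type TAC it ran from 5.91 through 6.14 to 6.70, against 5.13, 5.62, 5.21 and 5.16 in wild-type sham. TAC and sham did not overlap in either genotype. In the fit of all probe sets this one rose by 1.15 ± 0.16 in G4D (adjusted p = 0.000154) and by 0.91 ± 0.17 in wild type (adjusted p = 0.00852). Which of the probe sets reads the Cdk6 transcripts of these samples was not tested, so Cdk6 counts as not passing on its brightest probe set and as passing on another.

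**Figure D3:**
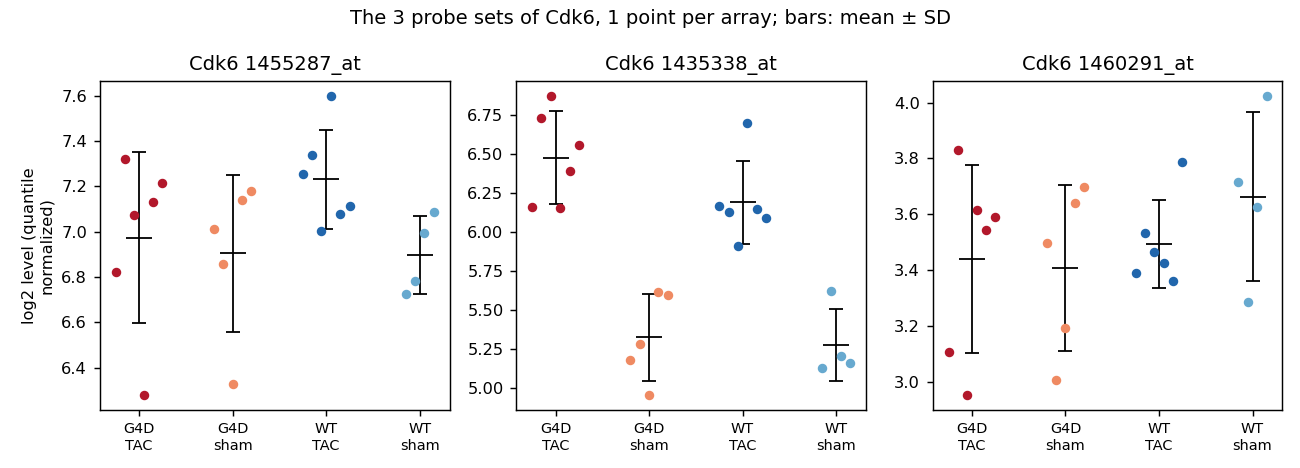
The log2 level (y axis) of each of the 3 Cdk6 probe sets is plotted with 1 point per array in the 4 groups (x axis) and bars for the mean ± SD. On 1435338_at the TAC arrays (5.91 and above) lie apart from the sham arrays (5.62 and below), and on the other probe sets the groups overlap.

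Cdkn1c encodes p57, a broad inhibitor of cyclin and kinase complexes that is imprinted and expressed from the maternal copy in mouse. Its log2 level in G4D TAC ran from 6.20 through a median of 6.42 to 7.46, against 7.66, 7.75, 7.87, 7.81 and 7.14 in G4D sham. Wild-type TAC ran from 6.48 through 6.90 to 7.19, against 7.45, 7.74, 7.75 and 7.76 in wild-type sham. In wild type all TAC arrays lay under all sham arrays. In G4D 4 TAC arrays lay between 6.20 and 6.42, and the other two, at 7.14 and 7.46, reached the lowest sham array.

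Cdkn1c fell by 1.00 ± 0.20 on the log2 scale after TAC in G4D (SE, 0.501-fold, adjusted p = 0.000932) and fell by 0.79 ± 0.21 in wild type (0.579-fold, adjusted p = 0.0244). The wild-type call was lost without sham replicate 2, 3 or 4 or TAC replicate 3, at -0.77, -0.76, -0.76 and -0.71 with adjusted p = 0.066, 0.0691, 0.0694 and 0.0504. It was also lost as deposited (-0.86, adjusted p = 0.059), with median centring (-0.795, adjusted p = 0.0786) and among all probe sets (-0.79, adjusted p = 0.0726). The G4D call held in each of these, with adjusted p = 0.0444, 0.0146 and 0.00381 in the same order. The difference between the effects was -0.21 ± 0.29 (95% interval -0.81 to 0.39). The genotypes stood at -0.24 ± 0.19 after TAC and at -0.03 ± 0.22 in sham, G4D relative to wild type, and neither passed. A single probe set reads the gene.

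Cdkn1a encodes p21, an inhibitor that p53 is known to switch on. In G4D TAC its log2 level ran from 7.01 through a median of 7.33 to 7.70, against 5.31, 5.87, 6.98, 7.04 and 6.77 in G4D sham. In wild-type TAC it ran from 5.86 through 6.36 to 8.39, against 6.22, 6.09, 7.44 and 6.54 in wild-type sham. The spread between arrays was wide (SD 0.26, 0.77, 0.92 and 0.61 in that order of groups), and G4D TAC was the tightest group.

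The TAC effect on Cdkn1a was 0.96 ± 0.38 in G4D (SE, 95% interval 0.17 to 1.75, adjusted p = 0.0754) and 0.10 ± 0.41 in wild type (95% interval -0.75 to 0.94, adjusted p = 0.928), and neither passed. The G4D effect did pass with the values as deposited (1.31, adjusted p = 0.0065), with median centring (1.11, adjusted p = 0.0428) and in a fit of only the G4D arrays (0.96, adjusted p = 0.0386). Relative to the median of all genes, it was 1.01 as deposited and 0.98 after quantile normalization. The difference between the G4D and wild-type effects was 0.86 ± 0.56 (95% interval -0.29 to 2.02, adjusted p = 0.727). After TAC G4D stood at 0.68 ± 0.36 relative to wild type (adjusted p = 0.457). Wild-type TAC replicate 5, at 8.39, was the highest of all arrays, and without it this value was 1.03. In sham the value was -0.18 ± 0.42.

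Cdkn1b, which encodes p27, an inhibitor of resting cells, ran from 6.96 to 7.49 in G4D TAC, from 6.96 to 7.85 in G4D sham, from 7.11 to 7.51 in wild-type TAC and from 7.39 to 7.66 in wild-type sham. The TAC effects were -0.21 ± 0.13 in G4D (SE, adjusted p = 0.265) and -0.24 ± 0.14 in wild type (adjusted p = 0.376). Cdkn2c, which encodes the INK4 inhibitor p18, ran from 7.46 to 7.90 in G4D TAC, from 7.17 to 7.70 in G4D sham, from 7.37 to 8.04 in wild-type TAC and from 7.26 to 7.58 in wild-type sham. Its TAC effects were 0.15 ± 0.12 in G4D (adjusted p = 0.394) and 0.30 ± 0.12 in wild type (adjusted p = 0.161). All of these ranges overlapped and none of these effects passed.

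Rb1 encodes the retinoblastoma protein, the substrate of the D cyclin kinases. Its log2 level ran from 7.37 through a median of 7.55 to 7.74 in G4D TAC, against 7.08, 7.22, 7.06, 7.47 and 7.50 in G4D sham. Among wild-type TAC arrays it ran from 7.11 through 7.31 to 7.46, against 7.0, 7.45, 7.52 and 7.17 in wild-type sham. G4D TAC was the highest group, overlapping with each of the others. The TAC effect was 0.28 ± 0.11 in G4D (SE, adjusted p = 0.0651) and 0.00 ± 0.12 in wild type (adjusted p = 0.991), with a difference of 0.28 ± 0.16 (95% interval -0.05 to 0.61). The G4D effect passed as deposited (0.68, adjusted p = 0.0391) and with median centring (0.48, adjusted p = 0.0482). Relative to the median of all genes, it was 0.38 as deposited and 0.31 after quantile normalization. After TAC G4D stood at 0.26 ± 0.10 relative to wild type (unadjusted p = 0.0207, adjusted p = 0.231).

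**Figure D4:**
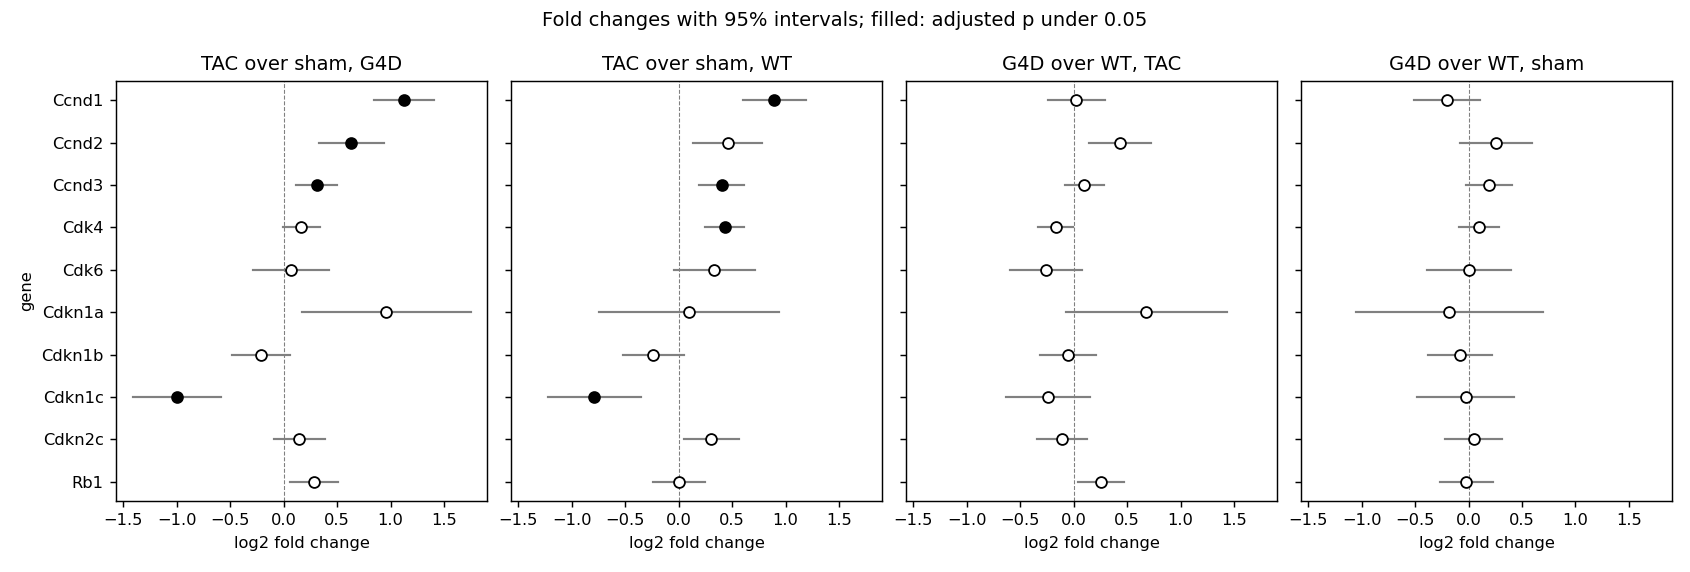
The log2 fold change (x axis) of each of the 10 genes (y axis) is plotted with its 95% interval for TAC over sham in G4D and in wild type and for G4D over wild type after TAC and in sham, with filled points at an adjusted p under 0.05. Ccnd1, Ccnd3 and Cdkn1c are filled in both TAC panels, Ccnd2 in G4D alone and Cdk4 in wild type alone, and no point is filled in the genotype panels.

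Among the genes that E2F factors are known to switch on, 13 of 19 tested (24 listed) rose and 0 fell with TAC in each genotype. Their median log2 fold change was 0.86 in G4D and 0.94 in wild type, and over all tested genes it was -0.02 in both. Risers made up 13.2% of all tested genes in G4D and 5.19% in wild type, and fallers 9.32% and 2.16%. Rrm2, a subunit of the enzyme that makes deoxynucleotides, rose by 1.77 ± 0.28 in G4D (SE, adjusted p = 0.000102) and by 1.97 ± 0.29 in wild type (adjusted p = 0.000329). Cdt1, which licenses replication origins, rose by 1.68 ± 0.25 (adjusted p = 6.8e-05) and 2.12 ± 0.27 (adjusted p = 7.25e-05), from a wild-type sham mean below the filter. Mcm6, a subunit of the replicative helicase, rose by 1.59 ± 0.21 (adjusted p = 1.63e-05) and 1.73 ± 0.22 (adjusted p = 7.73e-05), G4D given before wild type. The sham means of Lig1, the replicative DNA ligase and another of the 13, also lay below the filter, at 4.15 in G4D and 3.96 in wild type. The G4D sham mean of Uhrf1, another gene of the list, lay below it at 4.31, against 4.68 in G4D TAC. Cdt1, Lig1 and Uhrf1 could thus enter the test through the TAC arrays, and the counts of risers include Cdt1 and Lig1. None of the 19 passed between the genotypes or for the difference between the effects.

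Of the partners of the D cyclin kinases (other cyclins, Cdk2, the activating kinase Cdk7 and Cks proteins), 14 of 16 were tested. In G4D 4 rose and 1 fell with a median of -0.02, and in wild type 4 rose and 0 fell with a median of 0.07. Over all tested genes 13.2% rose and 9.32% fell in G4D, and 5.19% rose and 2.16% fell in wild type. Cks2, a small subunit of CDK complexes, rose by 2.65 ± 0.29 in G4D (SE, adjusted p = 2.51e-06) and by 2.50 ± 0.31 in wild type (adjusted p = 7.25e-05). Both of its sham means, 4.21 and 4.19, lay below the filter. The G4D sham mean of Ccne2, another cyclin of this list, also lay below the filter, at 4.19 against 5.07 in G4D TAC. Cks2 and Ccne2 could thus enter the test through the TAC arrays, and the counts of risers include Cks2. Ccna2, the cyclin of S phase, rose by 1.66 ± 0.24 and 1.95 ± 0.25 (adjusted p = 4.54e-05 and 9.85e-05), G4D before wild type. Cks1b, needed with Skp2 for the removal of p27, rose by 1.34 ± 0.29 and 1.06 ± 0.31 (adjusted p = 0.00193 and 0.0389).

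Among 16 tested of 19 listed pocket proteins, E2F factors and subunits of the DREAM complex, which holds cell cycle genes silent in resting cells, 6 rose and 2 fell in G4D (median -0.03), and 2 rose and 0 fell in wild type (median 0.05). The shares of all tested genes that rose and fell were 13.2% and 9.32% in G4D, and 5.19% and 2.16% in wild type. E2f3, an activating E2F, rose by 0.80 ± 0.17 in G4D (SE, adjusted p = 0.0019). E2f7, a repressive E2F, rose by 0.79 ± 0.21 in G4D (adjusted p = 0.0105) and by 0.77 ± 0.23 in wild type (adjusted p = 0.0438). Both of its sham means, 4.10 and 4.12, lay below the filter. E2f7 could thus enter the test through the TAC arrays, and the counts of risers include it. Lin54, a DNA-binding subunit of DREAM, rose by 0.65 ± 0.19 in G4D (adjusted p = 0.0167). Rbl1, the pocket protein p107, rose by 0.66 ± 0.14 in wild type (adjusted p = 0.00634).

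Of 5 tested among 7 other CDK inhibitors and antiproliferative genes, 1 rose in G4D and 0 passed in wild type, with medians of 0.26 and 0.34. The riser was Btg2, an antiproliferative gene that p53 is known to switch on, at 0.60 ± 0.18 (SE, adjusted p = 0.0176). Of 13 tested among 18 p53 target genes, 3 rose and 1 fell in G4D (median 0.10) and 1 rose and 0 fell in wild type (median 0.01). Over all tested genes 13.2% rose and 9.32% fell in G4D, and 5.19% rose and 2.16% fell in wild type. Nothing is therefore read from the TAC counts of either list. Phlda3, known to hold back Akt, rose by 1.00 ± 0.12 in G4D (adjusted p = 4.93e-06) and by 0.68 ± 0.12 in wild type (adjusted p = 0.00179). Zmat3, an RNA-binding protein, rose by 0.96 ± 0.11 in G4D (adjusted p = 4.44e-06). Sesn1 fell by 0.39 ± 0.13 on the log2 scale in G4D (adjusted p = 0.0395).

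The p53 target list was the only one of the 7 pathway lists with a gene that rose in G4D over wild type after TAC. Phlda3 stood at 0.49 ± 0.11 (SE, adjusted p = 0.015) and Zmat3 at 0.48 ± 0.11 (adjusted p = 0.0138), 2 of 13 tested genes, where 2.1% of all tested genes rose and 1.26% fell. Neither passed for the difference between the TAC effects.

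Of 15 tested genes that act in the turnover of D cyclins and CDK inhibitors, 2 rose and 3 fell in G4D (median -0.02) and 0 rose and 1 fell in wild type (median -0.08). Over all tested genes 13.2% rose and 9.32% fell in G4D, and 5.19% rose and 2.16% fell in wild type, so nothing is read from these counts or from those of the upstream regulators. Fbxo31, an F-box protein that directs cyclin D1 for destruction, fell by 0.90 ± 0.15 on the log2 scale in G4D (SE, adjusted p = 0.000246) and fell by 0.66 ± 0.16 in wild type (adjusted p = 0.0157). Usp2, an enzyme that takes ubiquitin off cyclin D1, fell by 0.66 ± 0.19 in G4D (adjusted p = 0.0158). Ambra1, a receptor that directs D cyclins for destruction, rose by 0.51 ± 0.17 in G4D (adjusted p = 0.0373).

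Of 23 tested upstream regulators 1 rose and 3 fell in G4D (median 0.00), and 1 rose and 1 fell in wild type (median 0.03). Egr1, an immediate early factor, rose by 1.17 ± 0.28 in G4D (SE, adjusted p = 0.00477), and Jun, part of the AP-1 factor, by 0.45 ± 0.10 in wild type (adjusted p = 0.00566). The forkhead factors are known to switch on Cdkn1b, and Foxo3 fell by 0.63 ± 0.12 in G4D (adjusted p = 0.000521). Foxo4 fell by 0.47 ± 0.11 in G4D (adjusted p = 0.00392) and fell by 0.40 ± 0.12 in wild type (adjusted p = 0.0403). Akt1, a kinase that inactivates forkhead factors, fell by 0.48 ± 0.08 in G4D TAC relative to wild-type TAC (adjusted p = 0.00234). In sham, and for the difference between the effects, no gene of the 7 lists passed.

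**Figure D5:**
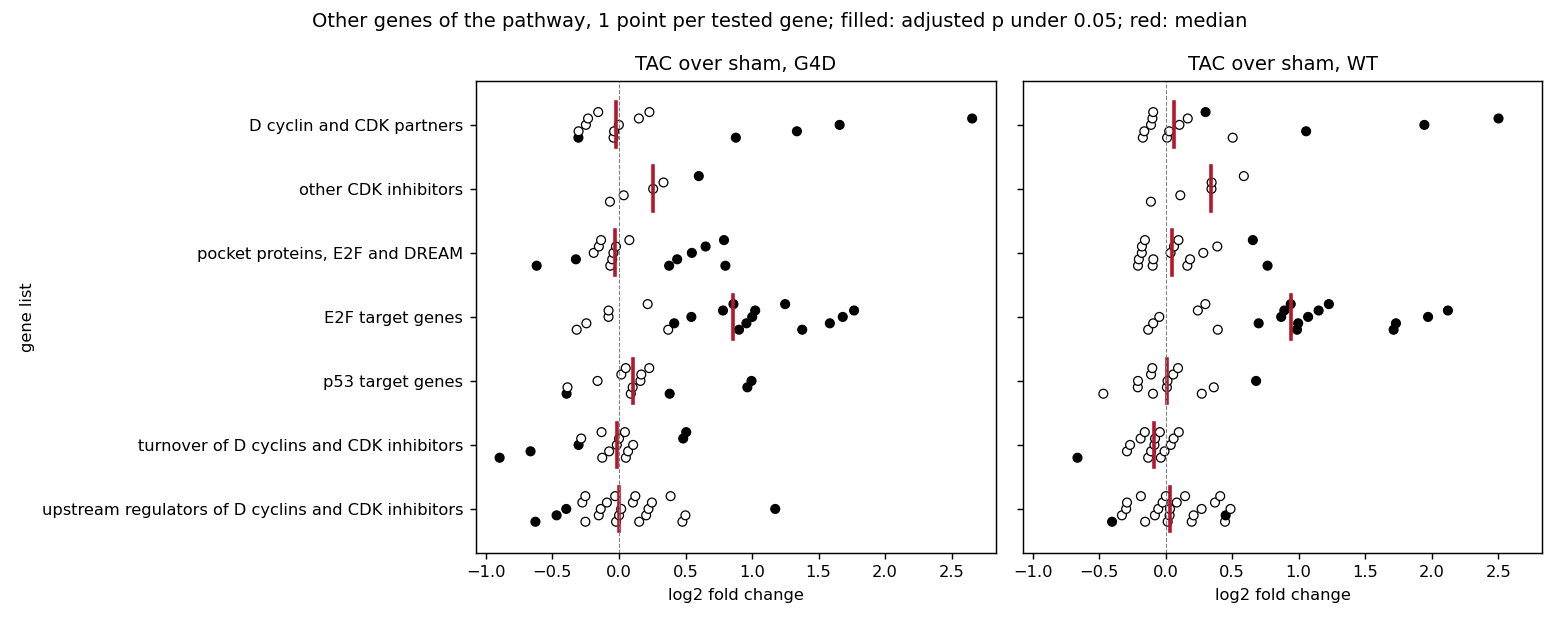
The log2 fold change of TAC over sham (x axis) is plotted in G4D and in wild type with 1 point per tested gene of the 7 pathway lists (y axis), filled at an adjusted p under 0.05, and a red bar at the list's median. The E2F targets have medians of 0.86 in G4D and 0.94 in wild type, and the medians of the lists other than the E2F targets lie between -0.08 and 0.34.

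Markers of macrophages and fibroblasts rose with the D cyclins. Of 11 markers of dividing cells on the array 7 were tested, and for 6 of these (Mki67, Top2a, Cdk1, Birc5, Plk1 and Ube2c) a sham mean lay below the filter, so they could enter the test through the TAC arrays and no count of calls is given for them. The log2 of the summed level of the 7 tested markers was 8.06 to 9.86 in G4D TAC, against 6.74 to 7.34 in G4D sham. In wild type it was 8.48 to 9.69 after TAC, against 6.64 to 7.23 in sham. The same filter chose the genes of this sum, so no rise of dividing cells is read from it. Where 13.2% of all tested genes rose in G4D and 5.19% in wild type, 11 and 10 of 11 tested macrophage markers rose. Their summed level was 11.81 to 12.39 in G4D TAC, against 11.22 to 11.57 in G4D sham, and 11.76 to 12.63 in wild-type TAC, against 11.38 to 11.50 in wild-type sham.

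Of 12 fibroblast markers 8 rose in G4D and 7 in wild type, and the summed level was 13.58 to 14.50 in G4D TAC, against 12.84 to 13.38 in G4D sham, and 13.34 to 14.21 in wild-type TAC, against 12.91 to 12.98 in wild-type sham. The ranges of the macrophage and fibroblast lists did not overlap between TAC and sham in either genotype. Over all tested genes 13.2% rose and 9.32% fell in G4D, and 5.19% rose and 2.16% fell in wild type. The counts of the other marker lists are given beside these shares, and nothing is read from them. Of 12 endothelial markers 2 rose in G4D and 4 in wild type. Of 8 tested smooth muscle markers 1 rose in each genotype, and of 3 tested lymphocyte and 3 tested erythroid markers 0 rose and 1 of each fell in G4D and 0 passed in wild type. Of 8 tested atrial markers 2 rose and 3 fell in G4D and 1 rose in wild type. Of 10 cardiomyocyte markers 0 rose and 2 fell in G4D and 0 passed in wild type, and the summed level was 15.77 to 15.83 in G4D TAC, against 15.81 to 15.90 in G4D sham, and 15.79 to 15.86 in wild-type TAC, against 15.85 to 15.88 in wild-type sham. The part of these markers in the results for the 10 genes was not tested.

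The actin measure of RNA quality stood apart between TAC and sham, and the Gapdh one did not. The 3' less the 5' log2 signal of the actin control probe sets was 0.193 to 0.379 in G4D TAC, against 0.385 to 0.628 in G4D sham, and 0.113 to 0.408 in wild-type TAC, against 0.437 to 0.667 in wild-type sham. The TAC and sham arrays did not overlap in it in either genotype, and its part in the results was not tested. The same difference for Gapdh was -0.315 to -0.0107 in G4D TAC, against -0.418 to -0.226 in G4D sham, and -0.303 to -0.0643 in wild-type TAC, against -0.326 to 0.111 in wild-type sham. TAC and sham overlapped in it in both genotypes. The summed level of the atrial markers ran from 11.20 through a median of 11.73 to 14.37 in G4D sham. Replicate 5 was the lowest G4D sham array for Ccnd1, Ccnd3, Cdk4 and Cdkn1c. On the brightest probe sets it was also the highest G4D sham array for Cdk6 (7.18), Cdkn1b (7.85) and Rb1 (7.50). It shared the highest value for Cdkn2c (7.70) with replicate 1.

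The genes whose levels ran most like those of the called genes were found by the root mean square difference over the 21 arrays between centred log2 levels. Nearest to Ccnd1 were Cd34 (0.198), Gusb (0.199) and Tpm4 (0.2), where Ccnd1 itself varied by 0.55 around its mean. For Ccnd2 (0.392) they were Nrap (0.209), Abcc1 (0.218) and Igdcc4 (0.219). For Ccnd3 (0.227) they were Rhog (0.116), Ankrd13a (0.117) and Tln1 (0.124). For Cdk4 (0.195) they were Arhgdib (0.113), Rbm43 (0.123) and Ehd2 (0.127), and for Cdkn1c (0.549) they were Bckdha (0.264), Ift81 (0.269) and Gstm1 (0.276). All of these share the same arrays, and Cd34 also stands in the list of endothelial markers.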

How the data were processed

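Affymetrix expression arrays of mouse RNA, with the source labelled cardiac myocytes, were grouped by sample title. Each deposited column holds log2 levels of the probe sets of an array, made by the authors with PLIER, a method that summarises oligos, per the submitters' processing notes. Its version, background correction and normalization are not given in the sources used here, and the log2 scale was read from the range of the values, -13.5 to 15.1. Of 45101 probe sets 64 controls were left out, and the other 45037 were quantile normalized. Symbols came from the platform annotation, where 34945 probe sets have 1 symbol, 932 several and 9160 none. A gene was tested on its brightest probe set with 1 symbol where its mean over 21 arrays reached the 40th percentile, which gave 13279 genes.

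Group means were fitted with all 21 arrays in limma 3.58.1 (R 4.3.3, lmFit and eBayes, 17 residual degrees of freedom), two-sided, with Benjamini-Hochberg adjustment over all tested genes of each of 5 comparisons and a threshold of 0.05. Every adjusted p is from limma. The probe sets of the 10 genes were also fitted among all 45037. The fit was tested on simulated data. The labels do not say that replicates are separate animals, so p-values measure the spread between these samples.

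The 10 genes, 7 pathway lists and 9 marker lists were chosen with earlier results of these data known, so counts on them are descriptions. Genes were named by a rule: all members, Gata4, of each list and comparison the called genes with the largest change, at most 3, and the 3 nearest genes of each called member. Of the list genes named for other reasons, Myc was chosen after its values were seen. Alternatives were no normalization, median centring, other filters, the mean of a gene's probe sets, a floor on low values, fits of only the groups compared, a replicate block and leaving out each array.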

Additional observations from a re-analysis of the deposited data

Results flagged for a closer look

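In 8 of 108 groups of a probe set, a single array stood apart from the rest by Dixon's test on log2 levels, where chance alone gives about 1 in 20, or 5.4. For Cdk6 on 1435338_at it was wild-type TAC replicate 4, at 6.7 with the next at 6.17, and wild-type sham replicate 2, at 5.62 with the next at 5.21. Both were high, and the TAC array stayed above the sham array. For Ccnd1 on 1448698_at it was wild-type TAC replicate 4, high at 9.31 with the next at 8.95. For Cdkn1c it was wild-type sham replicate 1, low at 7.45 with the next at 7.74, still above every wild-type TAC array.

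For Ccnd2 it was wild-type sham replicate 1 on 1448229_s_at, high at 6.92 with the next at 6.66. On 1416124_at, a Ccnd2 probe set below the filter, G4D TAC replicate 3 was low at 1.49 with the next at 4.32, and G4D sham replicate 3 was low at 1.91 with the next at 4.05. For Cdkn1a on 1421679_a_at, also below the filter, G4D TAC replicate 3 was low at 2.11 with the next at 3.74.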

How the results depend on the processing

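Between TAC and sham in G4D the count of the 10 genes that passed was 4, and 7 with the values as deposited, and it ran from 3 (without sham replicate 1) to 6 (without sham replicate 4) when an array was left out. In wild type it was 4, and 0 as deposited, 1 with median centring and 2 with the replicate block, and it ran from 2 (without sham replicate 2) to 5 (without TAC replicate 6). In the other comparisons it was 0 under every alternative run. The labels do not say that the numbers in the titles pair the arrays. Over 28 same-numbered pairs the median correlation of deviations from group means was -0.07 and 9 were over 0.1. Over 136 pairs of different number and group it was -0.01 and 52 were over 0.1. These correlations cannot exclude a pairing. With the replicate block the counts over all genes were 2379 for TAC in G4D, 488 for TAC in wild type, 274 for G4D over wild type after TAC, 3 in sham and 1 for the difference between the effects. Ccnd3 and Cdkn1c in wild type were at 0.42 (adjusted p = 0.0508) and -0.77 (adjusted p = 0.0689) with the block.

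Over all genes, 2985 passed for TAC in G4D, 976 for TAC in wild type, 446 after TAC, 7 in sham and 2 for the difference between the effects. As deposited, TAC in wild type gave 95, after TAC 64, sham 3 and the difference 6. Median centring gave 388, 185, 4 and 10 in the same order. The filter at the 60th percentile gave 15 in sham and 20 for the difference, which was 1 with no filter and 0 with the mean of a gene's probe sets. Leaving out an array gave 2405 to 3341 for TAC in G4D. It gave 562 (without wild-type sham replicate 1) to 919 for TAC in wild type, 596 without TAC replicate 4. After TAC it gave 247 (without G4D TAC replicate 1) to 644 (without G4D TAC replicate 4), and 283 and 281 without wild-type TAC replicates 1 and 3. In sham it gave 1 (without wild-type sham replicate 1 or 2) to 27 (without G4D sham replicate 2). For the difference it gave 1 to 29 (without G4D TAC replicate 4), with 1 in 11 of 21 fits and 5 without G4D TAC replicate 2.

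Scaling moved the median of all genes. As deposited it was 0.31 for TAC in G4D, -0.10 for TAC in wild type, 0.14 after TAC, -0.28 in sham and 0.43 for the difference. Median centring gave 0.10, -0.03, 0.02, -0.12 and 0.15 in the same order. Relative to it, Ccnd1 was at 1.24 and Cdkn1c at -0.90 for TAC in G4D as deposited, and at 0.90 and -0.77 in wild type. The share of calls that were higher was 58.6% for TAC in G4D, 70.6% in wild type and 62.6% after TAC, against 97.8%, 94.7% and 87.5% as deposited and 88.8%, 93.8% and 82.7% with median centring.

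Directions turned for values that had not passed. As deposited these were, in sham, Ccnd2 (-0.091), Ccnd3 (-0.14), Cdk4 (-0.23), Cdk6 (-0.27) and Cdkn2c (-0.27). They were Rb1 (-0.066) for TAC in wild type, Cdkn1b (0.18) for TAC in G4D, and Cdk4 (0.0023), Cdkn1b (0.11) and Cdkn2c (0.063) after TAC. For the difference they were Ccnd3 (0.42), Cdk4 (0.24), Cdk6 (0.18), Cdkn1c (0.26) and Cdkn2c (0.33). Relative to the median of all genes, all of these as-deposited values kept the direction found after quantile normalization. Examples were 0.19 for Ccnd2 in sham, -0.13 for Cdkn1b with TAC in G4D and -0.19 for Cdk4 for the difference. With median centring the turned directions were Cdk4 (-0.082), Cdk6 (-0.12) and Cdkn2c (-0.12) in sham, Rb1 (-0.00025) for TAC in wild type, and Ccnd3 (0.15) and Cdkn2c (0.062) for the difference. With the mean of a gene's probe sets they were Cdk6 in sham (-0.068), Rb1 for TAC in wild type (-0.051), and Cdk6 (0.060) and Cdkn1b (-0.042) for the difference. With the block they were Cdk6 in sham (-0.0194), and Cdkn1a (-0.13) and Rb1 (-0.0188) for TAC in wild type.

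With an array left out the direction turned in 35 fits, which fall on 12 values, some of them also named above. Their ranges were -0.0357 to 0.0896 for Ccnd1 after TAC, -0.0628 to 0.15 for Cdk6, -0.34 to 0.11 for Cdkn1a, -0.18 to 0.0464 for Cdkn1b, -0.10 to 0.0982 for Cdkn1c, -0.0143 to 0.13 for Cdkn2c and -0.115 to 0.0571 for Rb1 in sham, and -0.0739 to 0.21 for Cdk6 with TAC in G4D. They were -0.25 to 0.39 for Cdkn1a and -0.091 to 0.0815 for Rb1 with TAC in wild type, -0.10 to 0.0049 for Cdkn1b after TAC, and -0.10 to 0.12 for Cdkn1b for the difference. Calls were gained in G4D for Rb1 without sham replicate 4 (0.33), sham replicate 5 (0.34) or TAC replicate 4 (0.32), for Cdkn1a without sham replicate 4 (1.12) and for Cdkn1b without sham replicate 3 (-0.34). The mean of a gene's probe sets ended the Ccnd3 calls (0.28 in G4D, adjusted p = 0.197; 0.39 in wild type, adjusted p = 0.163) and gave calls for Cdk4 (0.27) and Cdk6 (0.42) in G4D. The cause of these moves was not tested. For the 6 probe sets below the filter, low signal limits what their values can show.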
